A study of Drosophila melanogaster with 6 samples.

Results

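The small RNA pathway genes described here are 10 named genes of Drosophila melanogaster: the Argonaute genes AGO1, AGO2, piwi and aub, the RNase III genes Dcr-1, Dcr-2 and drosha, and the genes of their double-stranded RNA-binding partners, loqs, r2d2 and pasha. They were chosen by name, and every probe set whose platform annotation gives one of these symbols was taken. This found 1 probe set each for 7 of the 10 genes, out of 11981 genes with a probe set of a single symbol. AGO1, AGO2 and Dcr-1 have no named probe set in the annotation used here and are not analysed, so the main miRNA dicer and the effector Argonautes of both somatic pathways are missing from what follows. RNA was measured on 6 Affymetrix arrays of S2 cells, an embryonic haemocyte-like fly line, 48 h after transfection. The control transfection, which per the series design was an empty vector, had 2 arrays, and pAc-Clk, a plasmid expressing the clock transcription factor Clk, had 2 arrays at 10 ng, 1 at 30 ng, then 1 at 100 ng. The cells were transfected transiently, so each array averages cells that took up the plasmid with cells that did not, and fewer cells expressing a gene cannot be told apart from less RNA per cell. The labels do not say that replicate arrays were separate cultures, and the p-values therefore reflect array-to-array spread, which may be technical.

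Small RNAs of flies are made by related pathways that share a logic. In the miRNA pathway, Drosha with Pasha cuts hairpins out of nuclear transcripts, Dcr-1 with Loqs cuts these to miRNAs, and AGO1 carries them to target mRNAs. In the siRNA pathway, which also defends against viruses, Dcr-2 cuts long double-stranded RNA and, with R2D2, loads the products into AGO2. The piRNA pathway uses no dicer: Piwi, Aub and AGO3 carry piRNAs that silence transposons, and it is known chiefly from the gonads, with Piwi in the nucleus and Aub in the cytoplasm of germ cells.

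Values are log2 signals, read from the natural log of the deposited intensities because that scale, and not the face value, fits a scanner's range; this reading is an inference. Read at face value, all log2 changes would be multiplied by 1.44. The background of an array was taken as the highest of its 17 Tag control probe sets, which match no fly transcript, and lay between 2.95 and 3.56. Signals of different probe sets cannot be ranked against each other, so each gene was compared only with this background and with itself across arrays. The Clk probe set read 2.50 and 2.84 in controls and 3.46 to 5.07 on the Clk arrays, and tim, a direct Clk target, rose from 3.27 and 4.03 in controls to between 8.18 and 12.4. All 12 haemocyte markers were above background on all 6 arrays. At 100 ng, 10 of the 12 were called, of which 5 rose and 5 fell. Over all genes 70.3% were called at this dose, 34.9% higher and 35.4% lower, so the markers' share was near the background. The marker changes ran from -3.56 for Pxn to 1.73 for Ppn, both genes of extracellular matrix proteins. On the 30 and 100 ng arrays the 5' end of 3 control transcripts was dim: the 5' minus 3' signal was -9.40 and -8.25, against -0.75 on both controls and -1.25 and -0.64 at 10 ng. With 1 array at each of the higher doses, an effect of dose and the low 5' signal cannot be told apart.

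In the control transfection, RNA of the measured miRNA and siRNA genes, drosha, pasha, loqs, Dcr-2 and r2d2, was well above background. The piRNA factors split: aub was far above background, whereas piwi was not detected. Of the 7 genes, 6 exceeded background on all 6 arrays and 1, piwi, exceeded it on 0 arrays. Among all genes, 63.7% exceeded it on both control arrays, and 53.3% read 4 or more on both, as did the same 6 genes.

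The Microprocessor acts first in the miRNA pathway. The drosha probe set (CG8730), for the nuclear RNase III, read 8.65 and 8.91 in controls, 8.72 and 8.54 at 10 ng, 8.91 at 30 ng, then 7.98 at 100 ng. The 100 ng array was the lowest, and the second 10 ng array was also just below both controls. The pasha probe set (CG1800), for the RNA-binding partner that positions Drosha on the hairpin, read 7.53 and 7.70 in controls, 7.56 and 7.59 at 10 ng, 7.93 at 30 ng, then 9.03 at 100 ng. Here the 100 ng array was the highest, and the 10 ng arrays lay between the controls.

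The dicer step was represented by 3 genes. The loqs probe set (CG6866), for the partner of Dcr-1 of which one isoform works with Dcr-2, read 6.81 and 7.31 in controls, 7.07 and 6.90 at 10 ng, 7.46 at 30 ng, then 8.69 at 100 ng. The standard deviation of its controls, 0.35, was the widest of the 7 genes, and the 10 ng arrays fell inside it. This probe set does not separate the isoforms. The Dcr-2 probe set (CG6493), for the dicer of long double-stranded RNA, read 10.33 and 10.28 in controls, 10.34 and 9.90 at 10 ng, 10.59 at 30 ng, then 9.94 at 100 ng. The second 10 ng array and the 100 ng array were both below the controls, by about the same amount. The r2d2 probe set (CG7138), for the partner that senses siRNA ends during loading, read 8.91 and 8.87 in controls, 9.00 and 8.57 at 10 ng, 9.75 at 30 ng, then 10.35 at 100 ng. The 2 single arrays were above all 4 others.

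The aub and piwi genes encode PIWI-clade Argonautes and lie close together in the genome. The aub probe set (CG6137) read 10.54 and 10.43 in controls, 10.68 and 10.38 at 10 ng, 10.79 at 30 ng, then 9.76 at 100 ng, between 6.20 and 7.74 above the background of its array. The piwi probe set (CG6122) read 2.38 and 2.69 in controls, 2.35 and 2.36 at 10 ng, 2.38 at 30 ng, then 3.52 at 100 ng. It was under the background of every array, and its highest reading coincided with the highest background, 3.56, so no fold is given. A single probe set at background shows that no RNA was detected at this sensitivity, not that there is none. In gene order, 2 genes separate piwi from aub, the uncharacterised CG12253 (6.92 and 7.34 in controls) and TTLL4A (4.73 and 5.83), named as a tubulin ligase-like gene. SCAR, an actin regulator on the far side of piwi, read 10.99 and 11.44. All 3 exceeded background on all 6 arrays, so piwi was a gene without detected RNA between detected neighbours.

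**Figure D1:**
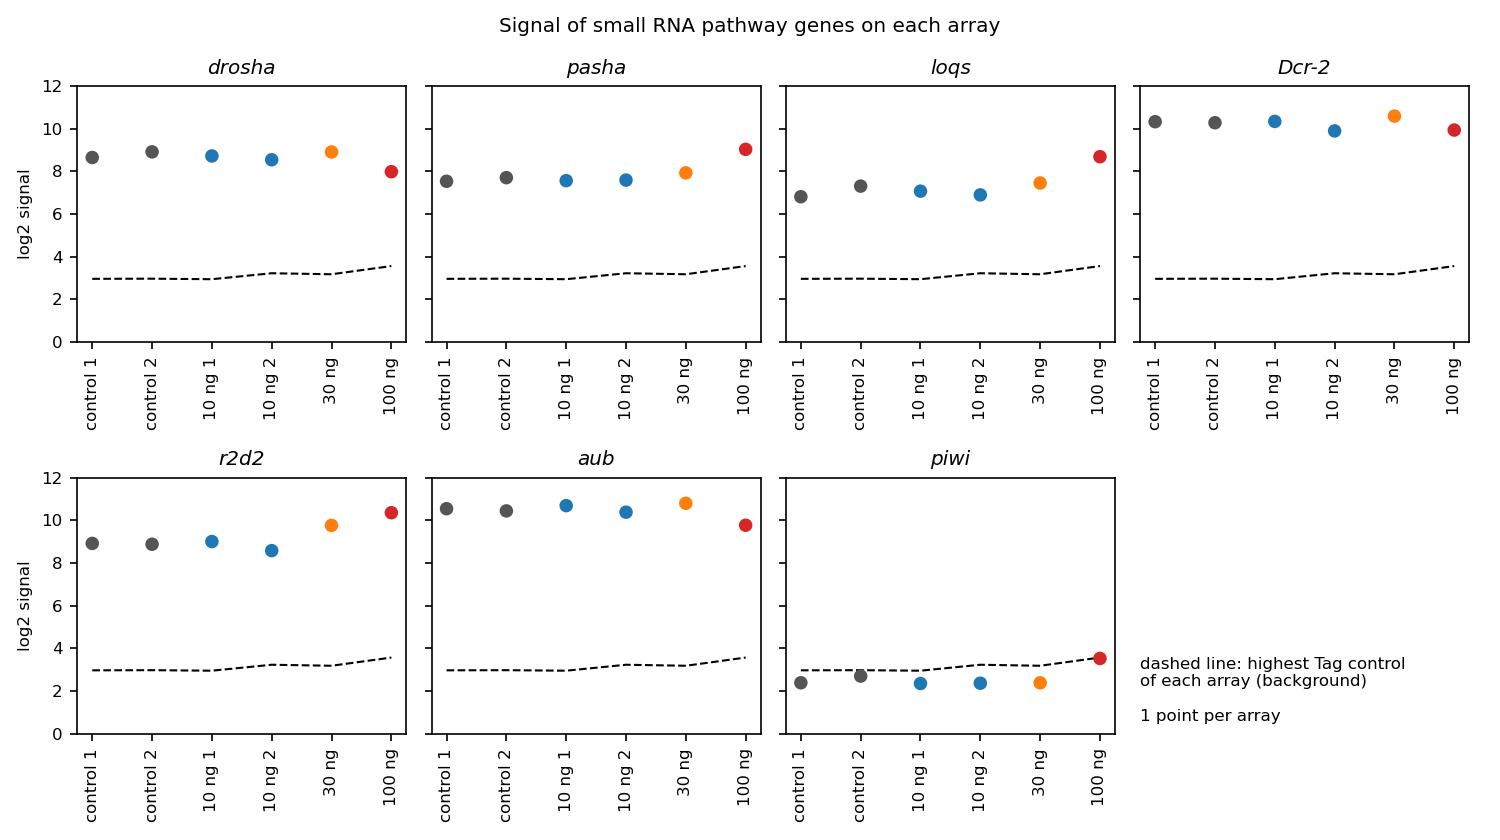
Log2 signal (vertical axis) of the 7 genes on each of the 6 arrays (horizontal axis), 1 point per array, with the highest Tag control of each array as a dashed line. The other panels lie well above the line on every array, and only the piwi points lie at or under it, between 2.35 and 3.52.

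The other genes of the piRNA pathway were read from a list of 31 factors, chosen with earlier results of these data known. Of the 31, 29 had a probe set. Of these 29, 27 exceeded background on both control arrays, against 63.7% of all genes. All 27 read 4 or more there, against 53.3% of all genes. They included the partner of Aub in piRNA amplification, AGO3, which read 4.25 and 4.78. The list also held genes for cytoplasmic processing, such as the helicase gene armi (9.96 and 10.1), the nuclease gene zuc (8.45 and 8.70) and the Tudor-domain genes krimp (11.03 and 11.10) and spn-E (8.72 and 8.93). Genes for the transcription of piRNA clusters were detected too, with rhi, an HP1 relative, at 6.99 and 7.43 and its partner del at 11.30 and 11.49. The 2 factors not above background were vas (2.60 and 2.56), the germline DEAD-box helicase, and qin, a Tudor-domain gene whose brighter probe set read 2.92 and 2.80 and whose other probe set read 2.59 and 2.60. AGO3 was 1.29 and 1.81 above background.

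Markers of gonadal cells were mixed. Of 10 germline markers, 6 exceeded background on both control arrays by their brightest probe set, a share near the 63.7% of all genes, and vas, nanos, orb and zpg did not. Those that did were bam (7.47 and 7.55) and bgcn (4.92 and 5.39), which act together in germ cell differentiation, gcl (8.64 and 8.87), the cyclin gene CycB3 (9.14 and 9.66), osk (4.44 and 4.07) and Rbp9 (3.55 and 3.39). Dimmer probe sets of the last 2 genes read 3.27 and 2.75 for one of osk and 2.85 and 2.82 for that of Rbp9, against backgrounds of 2.96 and 2.97. Of the 2 ovarian somatic markers, fs(1)Yb, a Tudor-domain helicase gene of the somatic piRNA pathway, read 9.12 and 9.17, and tj, a transcription factor gene, read 3.18 and 3.17, only 0.22 and 0.20 over background. The gene vas is in both the piRNA and the germline lists, and fs(1)Yb in both the piRNA and the somatic lists. The germline markers vas, nanos, orb and zpg were thus at background on both controls. The other 6 germline markers and most of the piRNA list were not.

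**Figure D2:**
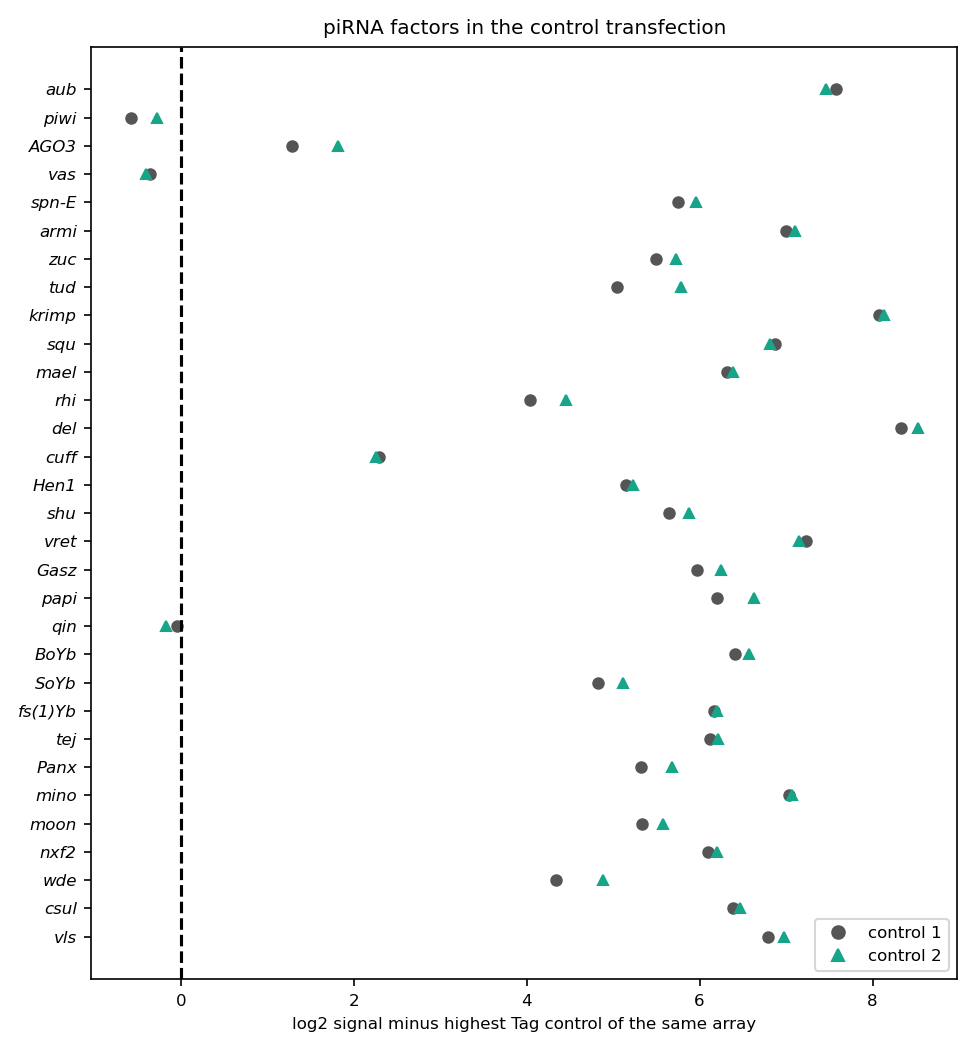
Log2 signal of aub, piwi and the 29 other piRNA factors with a probe set, minus the highest Tag control of the same array (horizontal axis), on control array 1 (circles) and control array 2 (triangles). The markers of piwi, vas and qin lie left of the dashed line at 0, and the points of all other genes lie right of it; genes are not comparable with each other on this scale.

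At 10 ng of pAc-Clk, the dose with replicate arrays, none of the small RNA genes was called. The count was 0 of 6 tested members (limma, Benjamini-Hochberg adjusted p, 0 at an unadjusted p under 0.05), against 0.0605% of 6612 genes. Their changes ran from -0.18 for Dcr-2 to 0.04 for aub, with a median of -0.09, and the median of all genes was also -0.09. For Dcr-2 the control mean of 10.30 ± 0.034 compared with 10.12 ± 0.31 at 10 ng (SD, n = 2 each). The 95% intervals reflect array-to-array spread, which may not include spread between cultures. For loqs, the least precise, the interval was 0.662-fold to 1.36-fold, and for aub, the most precise, 0.813-fold to 1.31-fold. For all 6 the 10 ng arrays overlapped the controls, whereas 3.57% of all genes had both 10 ng arrays above both controls and 22.9% had both below. For 5 of the 6, all but pasha, the second 10 ng array was lower than the first, as it was for 73.4% of all genes.

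At 30 ng, r2d2 was the one member that rose. Its signal was 1.82-fold that of the controls, a log2 change of 0.86 (SE 0.22, adjusted p = 0.0289, limma). This is 1 of 6 tested members, against 16.6% of all genes called in either direction with 6.22% higher and 10.4% lower, so the share is near the background. The others differed by 0.40 (loqs), 0.31 (pasha), 0.31 (aub), 0.29 (Dcr-2) and 0.13 (drosha), none of which passed. The loqs value rested on the controls, at 0.15 without control replicate 1 and 0.64 without control replicate 2, and drosha moved likewise, to -0.0059 and 0.26. All but drosha read above both controls, as did 55.4% of all genes (32.2% read below both), and the median change of 0.31 compared with 0.15 over all genes. The single array was assumed to vary like the replicated groups, and the part of its low 5' control signal (-9.40) in these changes was not tested. The call of r2d2 was lost with no filter on low signals (adjusted p = 0.155), at face value (0.113) and with the replicate number as a block (0.0638).

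At 100 ng the members moved in opposite directions. The gene loqs rose by 1.63 (SE 0.28, 3.09-fold, adjusted p = 0.00057), r2d2 by 1.46 (SE 0.22, 2.75-fold, adjusted p = 0.000253) and pasha by 1.41 (SE 0.24, 2.66-fold, adjusted p = 0.00043), each by limma. All 3 encode double-stranded RNA-binding partners of RNase III enzymes. The gene drosha fell by 0.80 (SE 0.23, adjusted p = 0.0102) and aub fell by 0.72 (SE 0.19, adjusted p = 0.0061). Dcr-2 differed by -0.37 (SE 0.21, adjusted p = 0.146), with a 95% interval of 0.561-fold to 1.07-fold. The 5 of 6 members called compare with 70.3% of all genes, 34.9% higher and 35.4% lower, so a call at this dose is no particular property of these genes. The 100 ng array read above both controls for 3 members and below both for 3, as it did for 48.7% and 45.6% of all genes.

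The members' directions at 100 ng held under the 2 other scalings, while some sizes and calls did not. Over all genes, the median change at 100 ng was 0.05 as deposited, 0.26 after quantile normalization and -0.36 after median centring. Relative to these medians drosha, at -0.47 and -1.20 under the 2 scalings, and aub, at -0.63 and -1.13, still fell. Dcr-2 passed after median centring (-0.77, adjusted p = 0.00589) and without 10 ng replicate 2 (adjusted p = 0.0497). Without control replicate 2, drosha no longer passed (-0.67, adjusted p = 0.0749). The 5' minus 3' control signal of this array was -8.25, and its part in these changes was not tested.

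**Figure D3:**
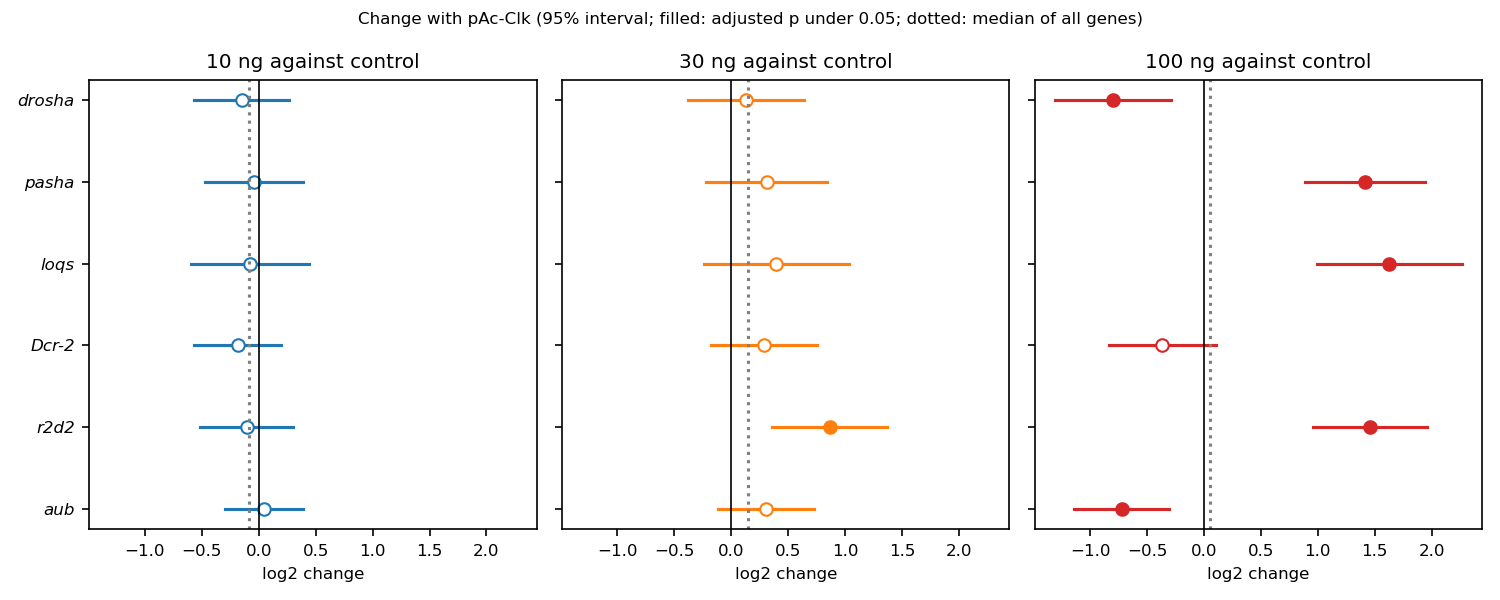
Log2 change against control (horizontal axis) of the 6 tested genes at each dose, with 95% intervals from the fit, filled where adjusted p was under 0.05, and the median of all genes as a dotted line. At 10 ng all points lie between -0.18 and 0.04; at 100 ng pasha, loqs and r2d2 lie at 1.41 to 1.63 and drosha and aub at -0.80 and -0.72.

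Within an array, the difference between the probe sets of 2 protein partners does not depend on the scaling of arrays by a constant. Its level has no meaning across probe sets, and its change compares 1 probe set of each gene, which need not stand for the whole transcript. At 100 ng, 70.3% of all genes were called, and 31.0% of 416 genes with several tested probe sets had them called in opposite directions. Both single arrays had dim 5' controls (-9.40 and -8.25). The part of probe set disagreement or of the dim 5' controls in these differences was not tested. The pasha minus drosha difference was -1.11 and -1.21 in controls, -1.16 and -0.95 at 10 ng, -0.98 at 30 ng, then 1.05 at 100 ng. The change was 2.21 at 100 ng and 0.18 at 30 ng, and the 10 ng arrays overlapped the controls. In controls the r2d2 minus Dcr-2 difference was -1.41 and -1.40. It was -1.34 and -1.32 at 10 ng, -0.83 at 30 ng, then 0.41 at 100 ng. All 4 Clk arrays exceeded both controls, and how often other probe set pairs do so was not computed. The r2d2 minus Dcr-2 change was 0.08 at 10 ng, 0.58 at 30 ng, then 1.82 at 100 ng. An exact two-sided permutation test of the 4 Clk arrays against the 2 controls gave p = 0.133 for r2d2 minus Dcr-2 and p = 0.267 for pasha minus drosha. The smallest p this design allows is 0.133, so neither could reach 0.05, and both pairs were picked with earlier results of these data known.

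**Figure D4:**
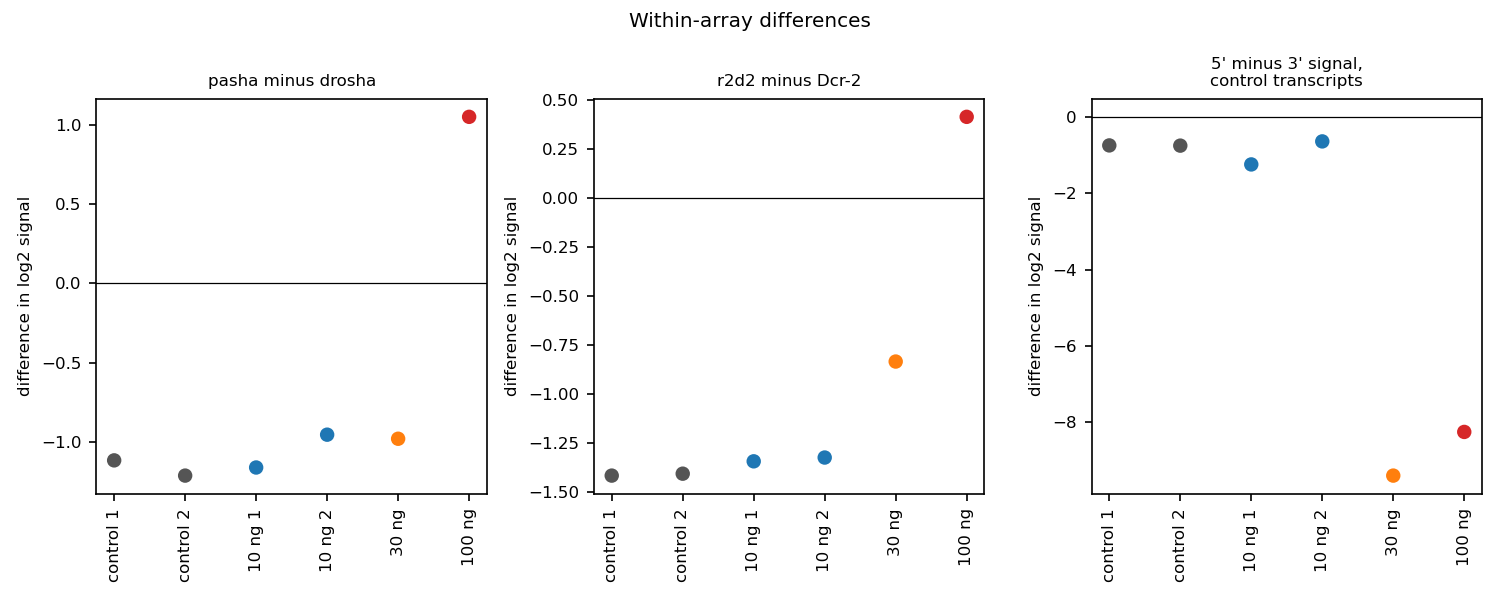
Difference in log2 signal (vertical axis) on each of the 6 arrays, 1 point per array, for pasha minus drosha, r2d2 minus Dcr-2, and the mean of 3 control transcripts' 5' minus 3' probe sets. Both partner differences are highest on the 100 ng array, at 1.05 and 0.41, and the control difference is low on the 30 and 100 ng arrays, at -9.40 and -8.25.

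The wider pathway was read from 3 further lists, chosen with earlier results of these data known. The gene Hen1 is in both the list of other small RNA factors and the piRNA list. At 10 ng none of the lists' genes was called by limma. The counts were 0 of 18 other small RNA factors, 0 of 16 silencing and decay genes and 0 of 27 piRNA factors. Over all genes 4 of 6612 (0.0605%) were called, so counts of 0 do not set these lists apart. At an unadjusted p under 0.05 the list counts were 0, 0 and 1, against 130 of 6612 genes. The median changes were -0.10, -0.07 and -0.09, against -0.09 over all genes.

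At 30 ng, 1 of the 27 tested piRNA factors rose and 3 fell, with a median of 0.33. Over all genes 6.22% rose and 10.4% fell, with a median of 0.15, so the list's share was near the background. After quantile normalization 4 of its genes were higher and 3 lower. Over all genes, the share of calls that were higher also moved, from 37.5% as deposited to 56.0% after quantile normalization. AGO3 rose by 1.16 (SE 0.29, adjusted p = 0.0234), to 5.67 from 4.25 and 4.78. SoYb, another Tudor-domain gene, fell by 1.31, and vls, which acts with an arginine methyltransferase on PIWI-clade Argonautes, fell by 1.24. Of the 16 silencing and decay genes, 1 rose, the nonsense-mediated decay helicase gene Upf1 (0.99), and 3 fell, among them the decapping enzyme gene DCP2 (-1.56) and the CCR4-NOT deadenylase subunit gene Rcd-1 (-1.02). Of the 18 other small RNA factors, 0 rose and 3 fell, among them bel, a DEAD-box helicase gene (-1.95), and Trax, a subunit of the endoribonuclease that helps to activate AGO2 (-1.17). A second, dimmer probe set of Trax changed by -0.25 and was not called. After quantile normalization 3 of the 18 were higher and 3 lower, and with the filter at 6 or robust moderation 2 were higher and 3 lower. The silencing and decay counts then became 2 higher and 2 lower, and 4 higher and 3 lower, respectively. The calls of AGO3 and Upf1 were lost without control replicate 1 (0.89 for each, adjusted p = 0.0637 and 0.0983). With no filter on low signals, AGO3, SoYb, Upf1, DCP2, bel and Trax did not pass (adjusted p = 0.0526 for Trax to 0.146 for AGO3), whereas vls and Rcd-1 did. At face value AGO3 (adjusted p = 0.101), Upf1 (0.0925), DCP2 (0.0582) and SoYb (0.0537) also missed the threshold.

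At 100 ng, 11 of the 27 piRNA factors rose and 5 fell, with a median of 0.43, against 34.9% and 35.4% of all genes and a median of 0.05. The balance turned with scaling: 4 were higher and 8 lower after median centring, and 16 and 5 after quantile normalization. It turned over all genes too: 49.7% of all calls were higher as deposited, 34.6% after median centring and 57.2% after quantile normalization. Under these scalings the other small RNA factors gave 2 higher and 12 lower, and 6 and 9, and the silencing and decay genes gave 3 and 3, and 5 and 3. Here spn-E rose by 1.53 (SE 0.23, adjusted p = 0.000231) and fs(1)Yb by 1.22 (SE 0.19, adjusted p = 0.000297), while SoYb fell by 3.62 and del by 1.96. Of the 18 other small RNA factors, 4 rose and 10 fell, with a median of -0.56. Those with the largest falls were bel (-4.95) and Trax (-4.64), and those with the largest rises were Fmr1, an RNA-binding protein gene (1.41), and Ranbp21, the fly exportin-5 gene (0.97). The size of the Trax fall is not settled, because its dimmer probe set changed by -0.79. The direction of Fmr1 is not settled, because its other probe set fell by 3.60 (adjusted p = 3.63e-05, limma). Of the 16 silencing and decay genes, 4 rose and 3 fell, with Edc3, a decapping enhancer gene, at 2.08 and the deadenylase subunit gene PAN3 at 1.11, against Rcd-1 at -1.68 and DCP2 at -1.31. All 3 lists thus held changes in both directions, as did the table as a whole, where 34.9% of genes rose and 35.4% fell. These counts come from the arrays with dim 5' controls (-9.40 at 30 ng, -8.25 at 100 ng), whose part was not tested.

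**Figure D5:**
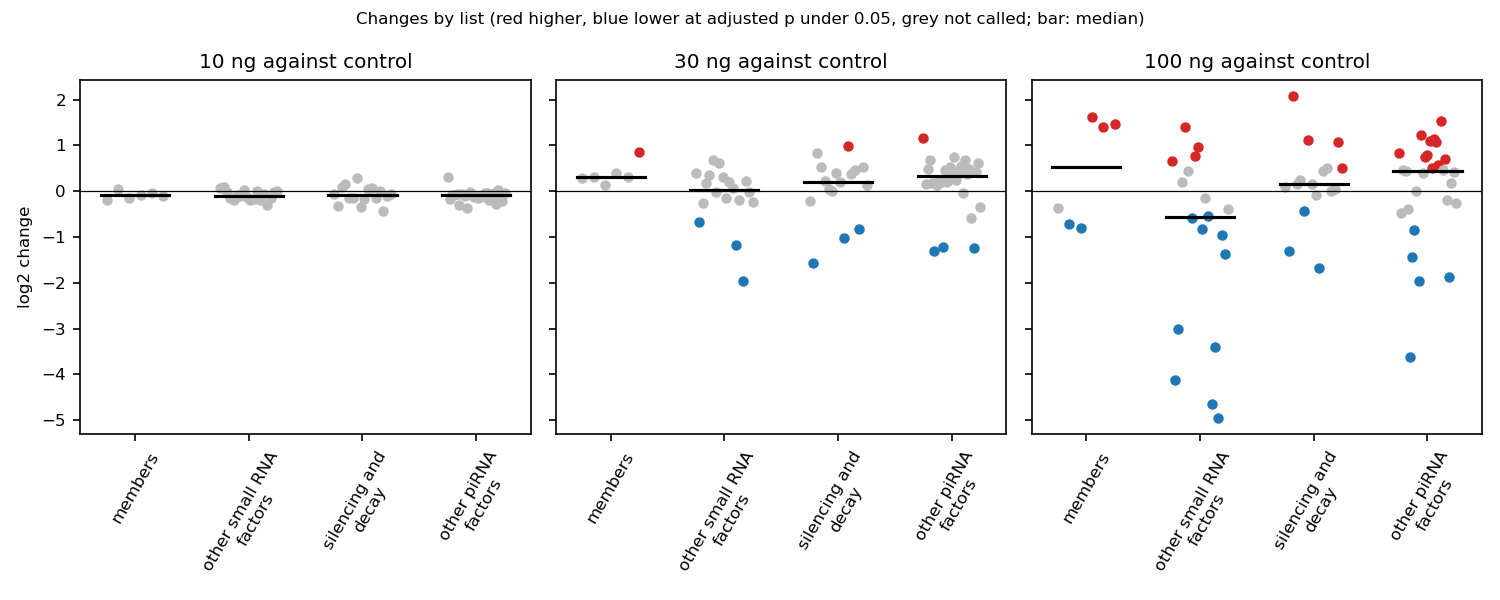
Log2 change against control (vertical axis) of each tested gene of the members and the 3 further lists at each dose, red where higher and blue where lower at adjusted p under 0.05, grey otherwise, with the list's median as a bar. At 10 ng every point is grey; at 100 ng each list holds red and blue points, and the widest range is that of the other small RNA factors, from -4.95 to 1.41.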

How the data were processed

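The deposited table holds 1 intensity per probe set and array; per the submitters' processing notes the authors used GCRMA, with no version or settings named. RNA was extracted with TRIzol, per the labels. Groups come from the sample titles, and 0 columns were left unassigned. The base of the linear scale is not stated. The log2 of the intensities reaches 22.9, beyond a 16-bit scanner, and their natural log spans 1.69 to 15.8, so the natural log was read as log2, an inference; face value is an alternative.

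Probe sets reading 4 or more on at least 2 arrays were tested (8446), without 183 control probe sets. Symbols were updated by Entrez ID through RefSeq, and the brightest probe set stood for a gene (6612 genes tested). Of the members, 6 were tested; piwi missed the filter. limma 3.58.1 in R 4.3.3 was used with 1 mean per group and an intensity trend, 2 residual and 7.61 prior degrees of freedom, and Benjamini-Hochberg adjustment over probe sets, with a threshold of 0.05. Partner differences used exact permutation in scipy 1.17.1.

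The members, lists and tests were chosen with earlier results of these data known. Named genes were all members; per list, the 2 largest rises and falls called at 30 and at 100 ng and any called at 10 ng; and germline and somatic markers above background. Genes named for their level in controls, among them armi, zuc, krimp, rhi, vas and qin, and the neighbours of piwi were chosen after their values were seen. On simulated data with 200 of 8446 probe sets changed, 68.0% of 1-unit log2 changes were recovered at 10 ng, 40.3% at 30 ng and 39.0% at 100 ng, and at least 97.9% of 2-unit changes. The simulated arrays had no low 5' signal and few changed probe sets, whereas 70.3% of genes were called at 100 ng. These rates therefore need not hold for the 30 and 100 ng arrays. No sequences are shown, since none were among the references used here. Genome coordinates are not given because no source used here names the build of the array annotation.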

Additional observations from a re-analysis of the deposited data

How the results depend on the processing

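No member was called at 10 ng in any of the 16 alternative fits. At 30 ng, the 1 call (r2d2) fell to 0 at face value, with no filter and with the replicate block, and stayed at 1 in the other 11, each left-out replicate included. At 100 ng, 5 members were called, and 4 to 6 over 14 alternative fits; leaving out 1 replicate also gave 4 to 6. The sixth call was Dcr-2, or piwi with no filter, where both groups are at background. Changes near 0 turned sign without passing. At 10 ng pasha was 0.061 after quantile normalization. With 1 array left out in turn, the 10 ng change ran from -0.41 to 0.038 for Dcr-2, -0.32 to 0.17 for loqs, -0.32 to 0.11 for r2d2, -0.13 to 0.042 for pasha and -0.11 to 0.20 for aub, and the 30 ng change of drosha from -0.0059 to 0.26. The cause was not tested. The calls over all genes ranged from 0 to 13 (main 4) at 10 ng, from 450 to 1814 (main 1097) at 30 ng and from 4145 to 6891 (main 4647) at 100 ng. At 30 ng the list calls ranged from 2 to 8 (main 4) for piRNA factors, 1 to 7 (main 4) for silencing and decay genes and 0 to 6 (main 3) for the other factors. At 100 ng they were 12 to 21 (main 16), 5 to 8 (main 7) and 11 to 15 (main 14). Of the 30 ng calls, 37.5% were higher in the deposited values, 56.0% with quantile normalization and 30.0% with median centring; at 100 ng these shares were 49.7%, 57.2% and 34.6%. Same-numbered control and 10 ng arrays deviated together (r = 0.334 over probe sets), but 2 pairs do not establish a pairing. With the replicate block r2d2 at 30 ng was 0.75 (adjusted p = 0.0638), and no other member's call changed. With the filter at 6, robust moderation, the block or a control array left out, the estimated prior degrees of freedom had no upper bound, and p-values then rest on the pooled spread alone.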

Other observations

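Genes with more than one tested probe set show how far a single probe set can be read on the 30 and 100 ng arrays. Of 416 such genes, 0 had probe sets called in opposite directions at 10 ng, 7 did at 30 ng and 129 (31.0%) at 100 ng. Over all genes, 0.0605%, 16.6% and 70.3% were called at these doses. Opposite calls could thus hardly arise at 10 ng, and the 0 there does not show that probe sets agreed. The part of the share called in the 31.0% was not tested. Among the small RNA lists, the brighter probe set of Fmr1 rose by 1.41 at 100 ng and the other fell by 3.60, and at 30 ng they differed by 0.36 and -3.35. For Cbp80, the nuclear cap-binding subunit gene, the brighter probe set fell by 3.01 at 100 ng and the other rose by 2.26. Each member with data here has 1 probe set, so no such comparison can be made for it.

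Of 5 germline markers tested at 100 ng, 3 rose and 1 fell, with bam at 2.06 (adjusted p = 5.86e-05, limma), and fs(1)Yb rose by 1.22, against 34.9% of all genes called higher and 35.4% lower. The 1 that fell was osk, by its brightest probe set (-0.77). Of the other osk probe sets, one changed by 0.14 against control and was not called. Another, untested, read 3.27 and 2.75 in controls and 6.77 at 100 ng. CycB3 did not pass (-0.27, adjusted p = 0.339, limma), and tj and Rbp9 were not tested.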
